A study of Rattus norvegicus with 24 samples.

Results

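The 6 genes described here are those of protamine 1, 2 and 3 (Prm1, Prm2, Prm3), transition protein 1 and 2 (Tnp1, Tnp2) and Hils1. Prm1, Prm2, Tnp1 and Tnp2 encode small basic proteins that take the place of histones on the DNA of maturing sperm, Hils1 a spermatid protein related to linker histones, and Prm3 an acidic protein that bears the protamine name. They were found by gene symbol in the annotation of the array. That gave 6 probe sets, 1 for each gene, of 31042 probe sets tested, which cover 14217 named genes.

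In round spermatids these genes are transcribed, and their mRNA is stored in the cytoplasm until the nucleus elongates. Transition proteins then displace most histones, and protamines displace the transition proteins, so that the DNA is packed tightly in the sperm head. In the fetal testis the germ cells are gonocytes, which come before meiosis, whereas in the rat around puberty the first spermatids have formed.

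Testis RNA of male Fisher 344 rats, with no genetic modification, was measured on 24 Affymetrix arrays in 6 groups of 4, after oral gavage with dibutyl phthalate (DBP), a plasticizer known to disturb the development of the rat testis, or with its vehicle, corn oil. Dams received 50 mg/kg DBP or oil once a day from gestational day 12 to 20. The offspring of such dams in 4 groups received 1 gavage of 500 mg/kg DBP or oil on postnatal day 35 (PND35) and were killed 6 hours later. They are named by fetal and then postnatal exposure: DBP-DBP, oil-DBP, DBP-oil and oil-oil. The other pair of groups is fetal, DBP and oil: fetal testes were taken at gestational day 20 (GD20), 6 hours after the last dose in the DBP group and with no interval recorded for the oil group. Each PND35 array is named by its pup and each GD20 array by its dam, the array of oil dam 2 is labelled as a pool, and the labels do not tie pups to dams. No label says more about how the animals of a group were related, so the tests measure the spread between these arrays.

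The deposited values are probe-set intensities with no detection calls, so a GD20 level cannot be told apart from background here, and intensities of different probe sets are not compared with each other. The median intensity was 100.8 to 114.1 on PND35 arrays and 164.4 to 174.5 on GD20 arrays. The labels give RNA integrity numbers of 8.2 to 8.9. The manufacturer's poly-A spike-in probe sets were low on the arrays of DBP dams 19 and 21 (at most 6.60 on the log2 scale) against 8.17 to 8.77 on the other 6 GD20 arrays. At PND35 they were high (7.31 to 7.53) on the 4 DBP-DBP arrays and on those of DBP-oil pups 132 and 134, and low (5.90 to 6.14) on the other 10. PND35 RNA came from a column kit for 14 arrays and from Trizol with clean-up for 2, those of oil-DBP pup 115 and oil-oil pup 104, and GD20 RNA from Trizol with a micro-scale kit.

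In the rat genome as RefSeq gives it (GRCr8), Prm1, Prm2, Prm3 and Tnp2 lie together in 1 cluster, with a single other annotated gene, LOC120095020, among them, while Tnp1 and Hils1 lie elsewhere. RefSeq promoter entries were matched for 5 of the 6 genes. The 250 bases before the start of Tnp1, Prm1 and Tnp2 are shown because each holds at least 1 of the elements this gene group is known for. These are the cAMP response element (CRE), which the factor CREM binds in mouse spermatids, and the TATA box. The promoter of Hils1, which holds 1 as well, and that of Prm3, which holds none, are not shown. Capitals mark matches to TGACNTCA, a relaxed form of the CRE, and to TATAA, on either strand.
Tnp1 (GRCr8, chr9:82044279-82044528, minus strand): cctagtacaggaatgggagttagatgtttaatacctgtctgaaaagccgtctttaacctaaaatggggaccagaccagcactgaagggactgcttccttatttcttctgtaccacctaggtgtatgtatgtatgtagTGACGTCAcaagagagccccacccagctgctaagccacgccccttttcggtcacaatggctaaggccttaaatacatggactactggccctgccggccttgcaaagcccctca
Prm1 (GRCr8, chr10:5378490-5378739, plus strand): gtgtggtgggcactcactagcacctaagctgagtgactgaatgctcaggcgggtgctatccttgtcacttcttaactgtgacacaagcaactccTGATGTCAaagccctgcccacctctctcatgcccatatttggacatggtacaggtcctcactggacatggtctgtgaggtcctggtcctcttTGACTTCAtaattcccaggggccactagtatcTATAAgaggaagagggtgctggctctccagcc
Tnp2 (GRCr8, chr10:5386485-5386734, plus strand): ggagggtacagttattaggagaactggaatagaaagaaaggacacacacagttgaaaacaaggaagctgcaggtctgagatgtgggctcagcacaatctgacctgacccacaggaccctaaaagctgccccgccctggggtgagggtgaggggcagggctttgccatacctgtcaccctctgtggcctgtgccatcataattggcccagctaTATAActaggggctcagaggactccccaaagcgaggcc
The full CRE, TGACGTCA, stands in the Tnp1 promoter from 113 to 106 bases before the start, and in 1.59% of the 33469 promoters of the table (531). Its short form TGACG was in 18.2% of promoters, and among the 5 genes only in Tnp1, inside the same 8 bases. The relaxed form was in 8.88% of promoters and in 3 of the 5 genes: Tnp1, Prm1 with 2 matches (156 to 149 and 64 to 57 bases before the start) and Hils1 with 1 (43 to 36 bases). A TATAA stood 32 to 28 bases before the start of Prm1 and 38 to 34 bases before that of Tnp2, and in 24% of all promoters. These letters were searched with the gene group and its expression already known, and a match is a description of the sequence alone.

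All 6 genes were far higher in the PND35 testis than in the fetal testis. Prm1, which encodes the main protamine of rat sperm, had an intensity of 38155, 36207, 36277 and 30081 on the 4 oil-oil arrays, against 26.5, 59.7, 60.1 and 37.9 on the 4 GD20 oil arrays. The other genes showed the same separation: the lowest oil-oil array lay above the highest GD20 oil array in each. The log2 fold change, a difference of log2(intensity + 16) values, was 9.18 ± 0.16 for Prm1 (SE), 5.32 ± 0.12 for Prm2 and 7.02 ± 0.30 for Prm3. It was 7.58 ± 0.12 for Tnp1, 9.22 ± 0.14 for Tnp2 and 8.66 ± 0.14 for Hils1. Since the GD20 levels may be background, the sizes depend on the added constant: with 1 or 64 in place of 16, Tnp2 was 10.72 or 7.62, Prm3 7.86 or 5.84 and Prm2 5.52 or 4.82. The order of the genes changed with it too, so none is read here. The 6 passed the test at an adjusted p between 6.96e-15 and 7.54e-11 (limma, 4 arrays against 4, Benjamini-Hochberg over all probe sets). Of all probe sets, 20.7% passed it as higher and 43.3% as lower, and the groups did not overlap, with PND35 higher, in 19.6%. The median of all probe sets shifted by -0.31 between the ages as scaled by the submitters. Of the probe sets that passed, 32.3% were higher as scaled by the submitters, 62.2% with each array centred on its median (median shift 0.34) and 46.2% after quantile normalization (0.00). The 6 genes passed as higher under each of these, with Prm1 at 9.84 and 9.25 and Prm2 at 5.97 and 5.41 under centring and quantile normalization. Fewer cells of a type and less RNA per cell cannot be told apart in RNA of whole testis.

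**Figure D1:**
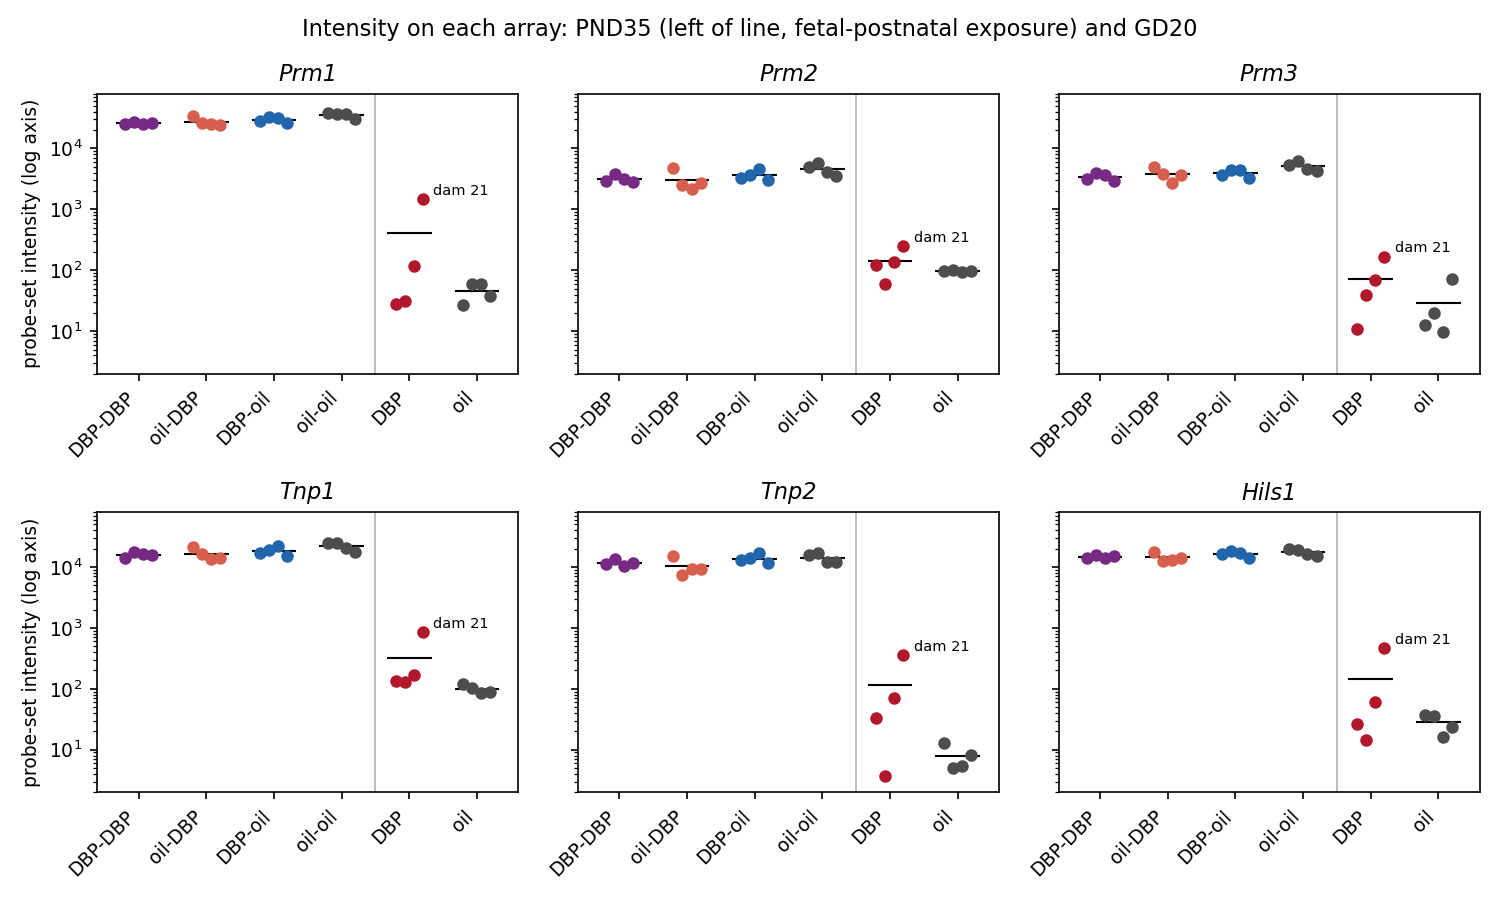
Probe-set intensity (log axis) of the 6 genes on each of the 24 arrays, with 1 panel per gene. Points are arrays, horizontal bars are group means, and the vertical line separates PND35 (DBP-DBP, oil-DBP, DBP-oil, oil-oil) on its left from GD20 (DBP, oil). Every PND35 array lies above every GD20 array in each panel, and the array of dam 21 stands highest among the GD20 arrays.

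The genes known to act on protamine and transition protein genes or on their stored mRNA moved in the same direction with age. Of 10 measured (of 15 listed), 9 passed as higher in oil-oil than in GD20 oil testes and 0 as lower, with a median log2 fold change of 2.84. The largest were Ybx2, which binds the stored mRNA (6.86), Rfx2, a transcription factor of spermatids (5.76), Ddx25, an RNA helicase needed in mouse for their translation (4.40), and Camk4, a kinase of spermatids (4.37). Crem itself, named here after its values were seen, averaged 4414 in oil-oil and 407 in GD20 oil testes, a log2 fold change of 3.38 ± 0.09 (adjusted p = 1.09e-12, limma). Tarbp2 (0.15) did not pass (adjusted p = 0.0923).

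Among genes tied to histone removal and chromatin remodelling, 7 of 9 measured (of 12 listed) passed as higher and 2 as lower. Phf7, a histone ubiquitin ligase of spermatids, had a log2 fold change of 6.89, Hspa2, a chaperone of transition proteins in mouse, 6.16, and Cdyl 2.82, while Pygo2 fell by 2.07. The 3 testis histone variants measured (of 4) were higher by smaller amounts: H1f6 by 1.48, H2ac1 by 1.47 and H2bc1 by 0.82. Their oil-oil means were 87.6, 102 and 43.0, where the median intensity of a PND35 array was 100.8 to 114.1. These probe sets may be near background at both ages, so the size of their rise is not read. Other spermatid markers passed as higher in 15 of 15 (of 20 listed), with a median of 6.98, and spermatocyte markers in 5 of 5 (of 9 listed). Leydig cell markers passed as lower in 6 of 6 and Sertoli cell markers as lower in 5 and higher in 2 of 7. Gonocyte and spermatogonia markers passed as higher in 1 and lower in 1 of 3. The age values of all these lists, the regulators among them, are for arrays as scaled by the submitters. Centring each array moved the median of all probe sets from -0.31 to 0.34. The list counts under centring are not given, and calls on small values depend on the scaling.

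Postnatal DBP after fetal oil was followed within 6 hours by lower levels of 5 of the 6 genes, with mean intensities at 0.666 (Prm2) to 0.787 (Prm1) of those in oil-oil testes, and each of these calls depends on single pups. In Prm1 the oil-DBP arrays had 33819, 26544, 25610 and 24721, against 38155, 36207, 36277 and 30081 on the oil-oil arrays. Pups 111, 115 and 121 lay below all oil-oil pups, and pup 105 within their range. The Prm1 mean was 27674 ± 4164 in oil-DBP and 35180 ± 3517 in oil-oil testes (SD, n = 4 each).

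Prm2, which is scarce as a protein in rat sperm, had 4789, 2534, 2171 and 2706 on the oil-DBP arrays, against 4876, 5758, 4142 and 3530 on the oil-oil arrays, a ratio of means of 0.666. Prm3, whose protein is found in mouse in the cytoplasm of spermatids, had 5062, 3880, 2713 and 3665 in oil-DBP, against 5275, 6117, 4673 and 4339 in oil-oil, a ratio of 0.751. In both genes pup 105 again lay within the oil-oil range and the other 3 oil-DBP pups below it.

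Tnp1, the more abundant transition protein in mouse spermatids, had 21505, 16541, 13420 and 13922 in oil-DBP, against 24769, 25071, 20475 and 17775 in oil-oil testes, a ratio of 0.742. Tnp2 had 15033, 7264, 9347 and 9149 in oil-DBP, against 15519, 17219, 12079 and 12109 in oil-oil, a ratio of 0.717. Hils1 had 17344, 12602, 13189 and 14307 in oil-DBP, against 19618, 18875, 16652 and 15007 in oil-oil, a ratio of 0.819. The split was the same in all 3: pups 111, 115 and 121 below every oil-oil pup, and pup 105 among them.

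On the scale of the test, with each array centred on its median, the log2 fold change was -0.69 ± 0.20 for Prm2 (SE, adjusted p = 0.0302), -0.58 ± 0.18 for Tnp2 (adjusted p = 0.0466), -0.51 ± 0.15 for Tnp1 (adjusted p = 0.0344), -0.50 ± 0.16 for Prm3 (adjusted p = 0.0489) and -0.42 ± 0.11 for Prm1 (adjusted p = 0.0242), from limma over all probe sets. Hils1 did not pass, at -0.36 ± 0.12 (adjusted p = 0.0602). So 5 of 6 passed as lower, where 4.15% of all probe sets passed as lower and 8.92% in either direction. The 6 genes varied together from pup to pup. Over the 16 PND35 arrays after subtracting group means, Pearson's r between pairs of them was 0.70 to 0.94 (median 0.85). Counts among the 6, here and in the other PND35 comparisons, are therefore not counts of separate results. The median of the 6 was -0.50, beside -0.08 over all probe sets. The groups overlapped in all 6, and over all probe sets 4.30% lay lower in oil-DBP with no overlap. Of the probe sets that passed, 53.5% were higher, against 69.2% with the arrays as deposited.

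These calls lie close to the threshold. Without pup 104 or 110 (oil-oil), or 111, 115 or 121 (oil-DBP), 0 of the 6 passed, with medians between -0.47 and -0.40. Without oil-oil pup 114, 2 passed. Without oil-DBP pup 105, all 6 passed, with a median of -0.66, and likewise without oil-oil pup 120 (-0.58) or DBP-oil pup 134. Without a pup of the other 2 groups, whose arrays enter the fit through its spread alone, 3 passed (without 123, 124, 127 or 135), 4 (132 or 133) or 5 (128). Under quantile normalization 0 passed, with a median of -0.34 and with Prm1 at -0.19, Tnp1 at -0.32 and Hils1 at -0.18, a change of over 1.5 times in these 3. Without the intensity trend 0 passed at the same fold changes (adjusted p from 0.0691 to 0.140, limma). With the arrays as deposited 2 passed, with 64 added to the intensity 3, with 1 added 5, with the extraction method as a covariate 4 and with the filter on dim probe sets 6. All 6 values were negative under every setting run. Both groups belong to the low spike-in class, and with that class as a covariate 3 passed at the same fold changes (adjusted p from 0.0212 to 0.0517, limma).

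The other spermatid markers did not pass, and their values overlapped those of the 6 genes. Of the 15 measured 0 passed, all 15 were negative, and their median was -0.33, from -0.45 in Akap4, a protein of the sperm tail sheath, to -0.11 in Spam1, a sperm surface enzyme. Of 10 regulators 0 passed, with a median of -0.23 and Crem at -0.24 ± 0.12 (adjusted p = 0.253, limma). In the histone removal list 1 of 9 passed: Rnf8, a ubiquitin ligase studied in mouse for its part in histone removal, which fell by 0.38 (adjusted p = 0.00607). It also fell by 0.33 in DBP-DBP against DBP-oil testes (adjusted p = 0.0199). Spermatocyte markers gave 0 of 5 (median -0.11), testis histone variants 0 of 3 and gonocyte and spermatogonia markers 0 of 3.

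Somatic genes changed in the same comparison. Of 6 Leydig cell markers 3 passed as lower (Cyp17a1 by -1.50, Cyp11a1 by -1.05, Hsd3b1 by -0.69) and 1 as higher (Star by 1.11), and of 7 Sertoli cell markers 2 passed as higher (Rhox5 by 1.12, Gata4 by 0.45) and 0 as lower. Rhox5 was dim in both groups (means 69.0 and 23.9). Star and Rhox5 also gave 1.14 each in DBP-oil over oil-oil, without postnatal DBP, and did not pass there. In DBP-DBP over DBP-oil they gave 0.22 and -0.50. Of the somatic genes named here only Cyp17a1 passed in that comparison, as lower (-0.99). The part of the somatic genes in the members' values was not tested. No difference between the members and the other spermatid markers was tested either.

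**Figure D2:**
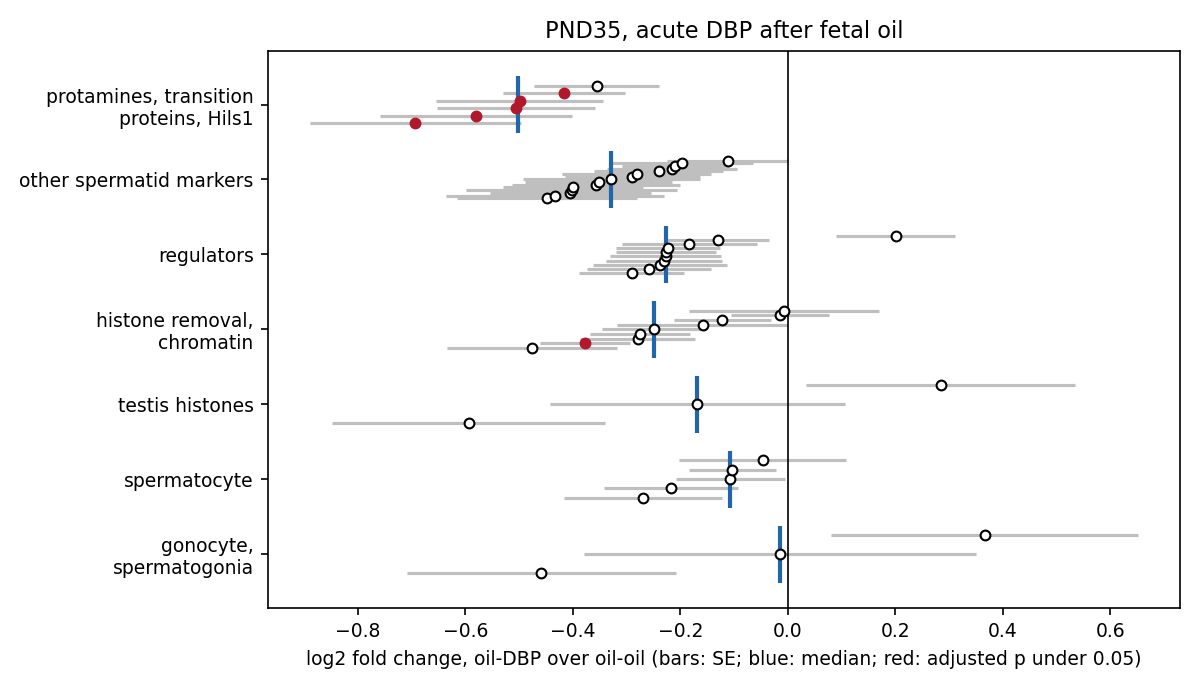
Log2 fold change of oil-DBP over oil-oil at PND35 for the 6 genes and for the genes of 6 lists. Points are genes, grey bars their SE, blue lines list medians, and red points passed at an adjusted p under 0.05. The 6 genes lie between -0.69 and -0.36, with 5 in red, and the 15 other spermatid markers between -0.45 and -0.11 with none.

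After fetal DBP the same postnatal dose gave values of the same sign but smaller, and 0 of 6 genes passed. Prm1 had 25434, 27029, 24972 and 26392 on the DBP-DBP arrays, against 28480, 32572, 32167 and 25877 on the DBP-oil arrays. The groups overlapped through pup 134 of DBP-oil, which was the lowest of its group in all 6 genes. Tnp1 had 14291, 17832, 16349 and 15572 in DBP-DBP, against 17047, 19160, 21937 and 15322 in DBP-oil testes, where pup 128 lay above DBP-oil pups 123 and 134.

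For the 6 genes the log2 fold change of DBP-DBP over DBP-oil lay between -0.26 (Tnp2) and -0.17 (Hils1), with a median of -0.22 and adjusted p from 0.412 to 0.679 (limma). The 95% interval reached from -0.45 to 0.02 for Prm1 and from -0.63 to 0.19 for Prm2. Over all probe sets 5.23% passed, 1.58% as lower, and the median was -0.06. All DBP-DBP arrays and 2 of the 4 DBP-oil arrays are of the high spike-in class, and with that class as a covariate 0 of 6 passed as well. Other spermatid markers gave 0 of 15 with a median of -0.18.

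The difference between these 2 acute responses was itself tested. The interaction was positive in all 6 genes, from 0.19 in Hils1 to 0.47 in Prm2, and 0 of 6 passed (adjusted p = 0.954 in each, limma). Its 95% interval reached from -0.13 to 0.54 for Prm1 and from -0.11 to 1.05 for Prm2, so these arrays do not settle whether the response differed. Over all probe sets 0.00% passed, and 1466 of 31042 had an unadjusted p under 0.05.

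**Figure D3:**
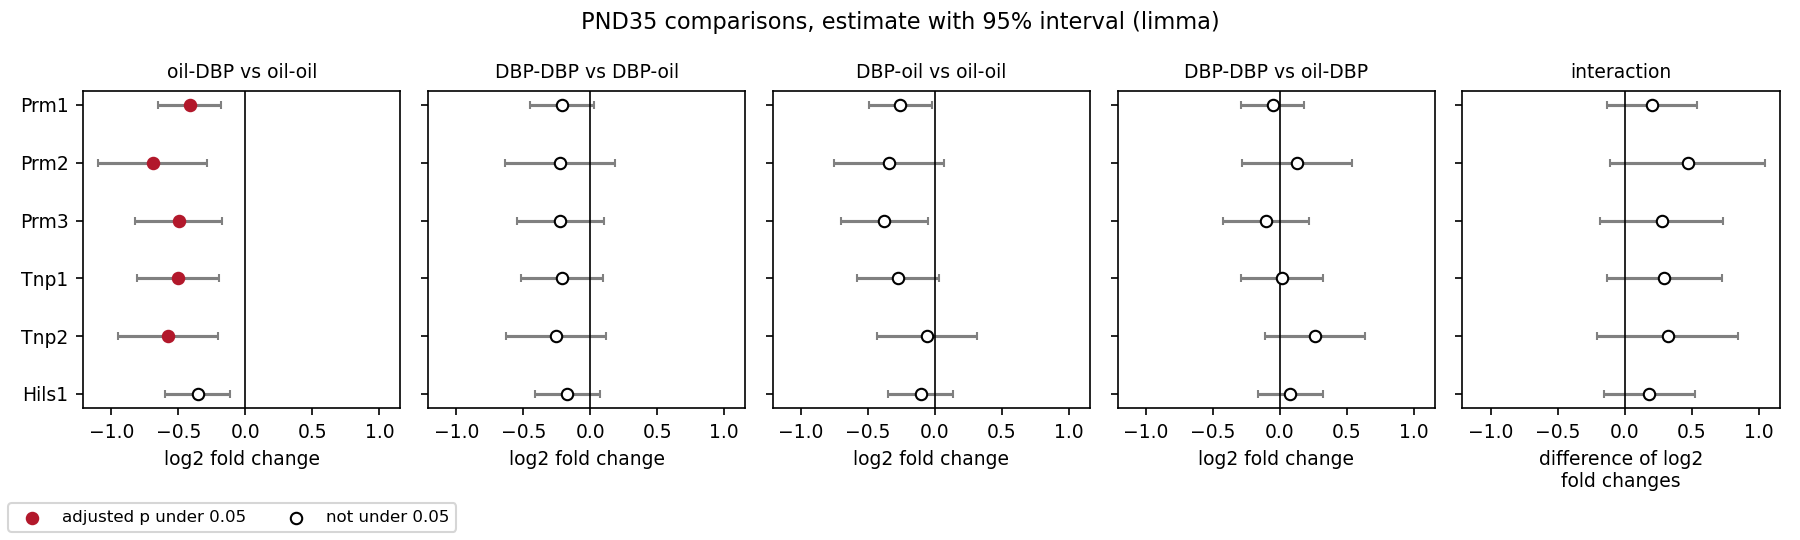
Estimates for the 6 genes in the 5 PND35 comparisons, with 95% intervals from the limma fit. The first 4 panels show log2 fold changes, the first named group over the second, and the last shows the response to postnatal DBP after fetal DBP minus that after fetal oil. Filled red points passed at an adjusted p under 0.05 and are found only in oil-DBP vs oil-oil, where 5 genes passed.

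Fetal DBP left no difference in the 6 genes at PND35 that passed the test. In DBP-oil against oil-oil testes all 6 values were negative, from -0.38 ± 0.16 in Prm3 (SE, adjusted p = 0.582) to -0.06 ± 0.18 in Tnp2 (adjusted p = 0.977), with a median of -0.27, and 0 of 6 passed (limma). Only 0.00322% of all probe sets passed. Prm1 and Prm3 had unadjusted p-values of 0.0331 and 0.0240, where 7.41% of all probe sets lay under 0.05. This comparison and that of oil-DBP share the oil-oil arrays, so their values are not independent of each other. DBP-oil pups 132 and 134 are of the high spike-in class, and the other arrays of DBP-oil and oil-oil of the low one. With that class as a covariate 0 of 6 passed as well.

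Prm3 had 3660, 4460, 4408 and 3337 on the DBP-oil arrays, against 5275, 6117, 4673 and 4339 on the oil-oil arrays. Pups 127 and 132 lay above the lowest oil-oil pup and the other 2 below all 4. In DBP-DBP against oil-DBP testes the values had both signs, from -0.10 ± 0.16 in Prm3 to 0.26 ± 0.18 in Tnp2, and 0 of 6 passed, with 0.00% of all probe sets passing (2791 of 31042 had an unadjusted p under 0.05, limma). All DBP-DBP arrays are of the high spike-in class and all oil-DBP arrays of the low one. Between these groups alone, fetal exposure and that class cannot be told apart.

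Ordered by mean intensity, oil-oil came highest and DBP-oil next in each of the 6 genes, with the postnatal DBP groups below them. DBP-DBP was the lowest group in Prm1, Prm3 and Tnp1, and oil-DBP in Prm2, Tnp2 and Hils1. Neighbours in that order did not pass in any comparison made between them, and DBP-oil was not compared with oil-DBP. Within each group the median SD of the 6 genes on the log2 scale lay above that of bright probe sets. It was 0.16 in DBP-DBP, 0.35 in oil-DBP, 0.21 in DBP-oil and 0.23 in oil-oil testes. Over the 2659 bright probe sets the medians were 0.10, 0.15, 0.12 and 0.12 in the same groups. The lowest SD of a member in DBP-DBP, 0.07, was under the bright median of that group.

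Several pups were the highest or the lowest of their group in all members. Pup 105 was the highest of oil-DBP and pup 128 of DBP-DBP in all 6 genes, pup 134 was the lowest of DBP-oil in all 6, and pup 120 the lowest of oil-oil in 5. Pup 111 of oil-DBP differed between members: it came next after pup 105 in Prm1, Prm3 and Tnp1 and was the lowest of its group in Tnp2 and Hils1. In these pups the 15 other spermatid markers lay the same way: pup 105 lay 0.50 above its group mean in the mean of the 6 genes and 0.40 in the mean of the markers, and pup 134 fell by 0.26 and 0.27 from its own. Spermatocyte markers moved less, by 0.17 above the mean in pup 105 and by -0.02 in pup 134. The part of RNA quality in this was not tested; pup 105 had an integrity number of 8.5 and pup 134 one of 8.9.

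**Figure D4:**
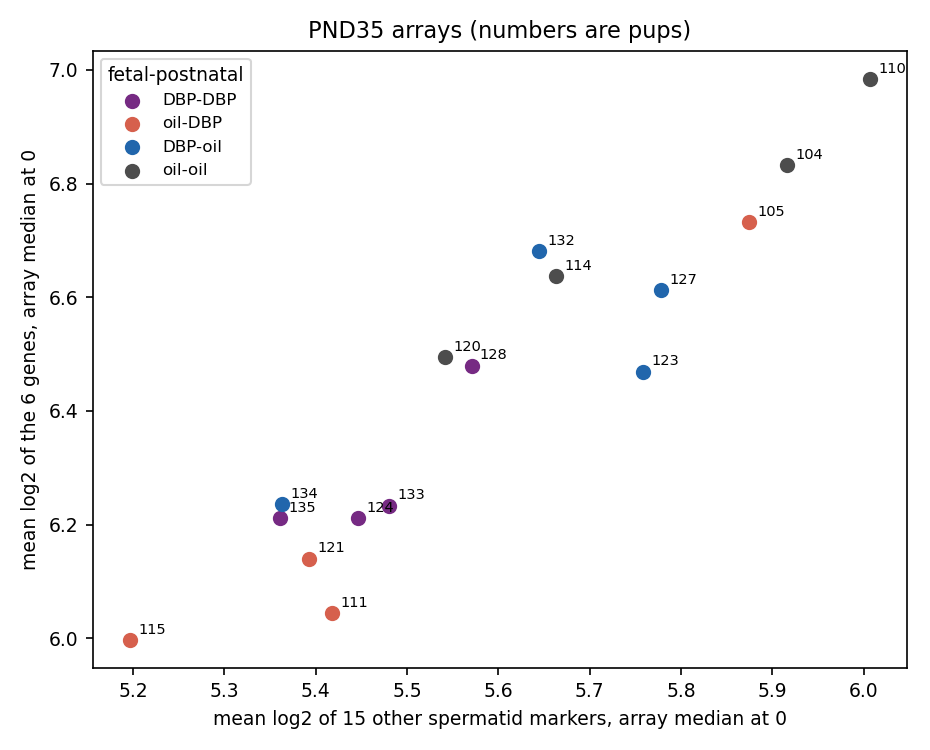
Mean log2 value of the 6 genes (vertical axis) and of 15 other spermatid markers (horizontal axis) on each PND35 array, both with the array's median set to 0. Points are pups, coloured by group and numbered. Pup 105 of oil-DBP lies among the oil-oil pups in both measures, and pup 134 is the lowest of DBP-oil in both.

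By the likeness of their profile, the genes nearest to the mean of the 6 over all 24 arrays were Oaz3 (Pearson's r = 0.998), Ldhc, Odf1, Crisp2, Akap4, C5h8orf88, Hspb9 and C10h5orf47. These arrays form 2 age clusters, and 235 of 14211 genes had an r above 0.99, so the value describes the age difference. Over the 16 PND35 arrays after subtracting group means, the nearest were Ccdc179 (r = 0.986), Oxct2b, Gdpd1, C3h9orf50, Plekhh2, Col16a1, Zc2hc1b and Gmfg (0.955), and 56 genes had an r above 0.9. The points of this measure share each pup's array and its scaling.

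Of the 12 nearest measured neighbours of the 6 genes in the genome, 1 passed as higher and 1 as lower in oil-DBP against oil-oil testes. Of all probe sets, 4.77% passed as higher and 4.15% as lower there. Litaf, the nearest measured gene before the cluster of Prm1, Prm2, Prm3 and Tnp2, had a mean of 1419 in oil-DBP, against 520.0 in oil-oil testes (log2 fold change 1.34 ± 0.15, adjusted p = 2.16e-06, limma), and was lower in oil-oil than in GD20 oil testes (-3.03). Litaf also passed as higher in DBP-DBP over DBP-oil testes (1.62, adjusted p = 1.70e-07, limma). Socs1, an inhibitor of cytokine signalling directly after the cluster, gave 0.57 ± 0.34 (adjusted p = 0.324). Igfbp5, a binding protein of insulin-like growth factors before Tnp1, fell by 1.06 in oil-DBP (adjusted p = 0.0383), and Sgca, next to Hils1, gave -0.30 (adjusted p = 0.431). With age, on the arrays as scaled by the submitters, Snn, Igfbp5, Igfbp2, Tns1, Col1a1, Samd14, Socs1 and Litaf were lower at PND35. Sgca and Ppp1r9b were higher, and Clec16a and Pincl did not pass. Socs1 averaged 15.4 in oil-oil and 34.7 in GD20 oil testes and may be near background. Centring each array moved the median of all probe sets from -0.31 to 0.34. The calls of these neighbours under centring are not given, and small values among them depend on the scaling.

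In the fetal testis the 6 genes were dim, and fetal DBP gave no difference that passed the test. Prm1 had 27.5, 31.5, 116 and 1469 on the arrays of DBP dams 16, 18, 19 and 21, against 26.5, 59.7, 60.1 and 37.9 on those of oil dams 2 to 5. Tnp1 had 134, 127, 171 and 843 in DBP, against 121, 101, 85.2 and 87.7 in oil. The array of dam 21 was the highest of the 8 in all 6 genes and that of dam 19 the next in Prm1, Prm2, Tnp1, Tnp2 and Hils1.

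Tnp2 had 33.3, 3.64, 69.8 and 359.9 in DBP, against 12.9, 5.00, 5.36 and 8.17 in oil. Hils1 had 26.0, 14.7, 61.1 and 471 in DBP, against 36.5, 35.5, 16.3 and 23.9 in oil. Dam 18 lay below all oil dams in both genes, and dam 16 lay among them in Hils1. Of the 6 genes only in Tnp1 did the groups not overlap.

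Prm2 had 120.5, 59.5, 137 and 252 in DBP, against 97.2, 102, 92.6 and 97.3 in oil. Prm3 had 10.99, 39.4, 69.3 and 168 in DBP, against 12.5, 19.6, 9.87 and 73.1 in oil, where dam 5 stood apart from the other oil dams. With all 8 arrays the log2 fold change lay between 0.34 ± 0.30 in Prm2 and 1.66 ± 0.66 in Tnp2 (SE), and 0 of 6 passed (adjusted p from 0.350 to 0.708, limma), where 0.441% of all probe sets passed. Of all probe sets 3.20% were higher in DBP with no overlap, and Tnp1 is 1 such gene, at 1.09 ± 0.45.

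Dam 21 set the size of these values. With its array left aside, 3 DBP against 4 oil arrays, the log2 fold change lay between 0.04 ± 0.24 in Prm2 and 0.88 ± 0.42 in Tnp2, and 0 of 6 passed (adjusted p from 0.337 to 0.972, limma), where 0.345% of all probe sets did. Tnp1 was then 0.48 ± 0.18, with an unadjusted p of 0.0245, where 11.9% of probe sets lay under 0.05, and its groups still did not overlap, as in 4.91% of probe sets. With all 8 arrays and the spike-in class as a covariate, which sets dams 19 and 21 aside from dams 16 and 18, Prm1, Prm2, Prm3 and Hils1 turned negative (-0.41, -0.16, -0.016 and -0.27).

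On the array of dam 21 other genes of the PND35 testis stood above the oil arrays together with the 6. On a scale where the mean of the GD20 oil arrays is 0% and that of the oil-oil arrays 100%, Prm1 stood at 4.05%, Prm2 at 3.45%, Tnp1 at 3.40%, Prm3 at 2.74%, Hils1 at 2.53% and Tnp2 at 2.48% on it. The median of the 6 was 3.07%, beside 1.85% for the 15 other spermatid markers and 2.18% for the 131 genes that were under 100 on every GD20 oil array and averaged at least 2000 in oil-oil testes. The median was 4.06% for the 5 spermatocyte markers, of which 4 lay above every oil array. Their values ran from 0.46% to 23.8%, and on the oil arrays their median reached from -0.82% (dam 5) to 0.83% (dam 2). Their median is thus not read beside that of the members. For the 10 regulators the median was 2.20%, and 5 of them lay above every oil array, beside 6 on the array of dam 19. Single regulators lay between -58.4% and 59.7% on the oil arrays themselves, so their median is not read beside that of the members. All 6 members, 14 of the 15 markers and 127 of the 131 genes lay above every oil array. How many of all probe sets did so on a single array was not counted. The 131 genes were also chosen in part for being under 100 on those oil arrays. These counts describe the array and are not read as a result about the members. The 2 epididymis markers measured (of 7 listed), Adam7 and Cst8, gave 0 of 2 in either GD20 fit. With all arrays Adam7 averaged 5.20 in DBP and 6.62 in oil, and Cst8 1273 and 1012. These fits compare groups, and the 6 members did not pass in them either, so they cannot describe the array of dam 21 alone.

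By a rule of an intensity of at least 200 and at least 4 times the highest of the other 7 GD20 arrays, 24 genes stood out on the array of dam 21 and 0 on each other GD20 array. Among the 24 were Prm1, Hils1, Tnp2 and Tnp1. Others were Arhgap20l1 (413 on the array of dam 21, against at most 3.89 on the other 7), Cmtm2a (1373 against at most 109.96), Smcp, a mitochondrial protein of sperm (447 against at most 43.6), and Odf1, a protein of the sperm tail (825 against at most 86.7). The other arrays may be at background in these genes, so no ratio is given. All 24 were higher in oil-oil than in GD20 oil testes by the limma fit, beside 20.7% of all probe sets. The rule picks genes that were low on the GD20 oil arrays, which are also the reference of that fit. This count is therefore not independent of the rule, and the share of all probe sets is not a like base for it.

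The array of dam 19 was the next highest, at a median of 0.38% over the 6 genes and 0.15% over the 131, with 5 of 6 and 56 of 131 above every oil array. On the array of dam 16 these were 3 of 6 and 32 of 131, and on that of dam 18 they were 1 of 6 and 30 of 131. For these arrays too the share over all probe sets was not counted, so the counts are not read as a result. Dams 19 and 21 are also the 2 arrays of the low spike-in class. The medians of the 131 genes lay between -0.02% and 0.02% on the other 6 GD20 arrays. The source of the signal on the array of dam 21 was not tested.

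**Figure D5:**
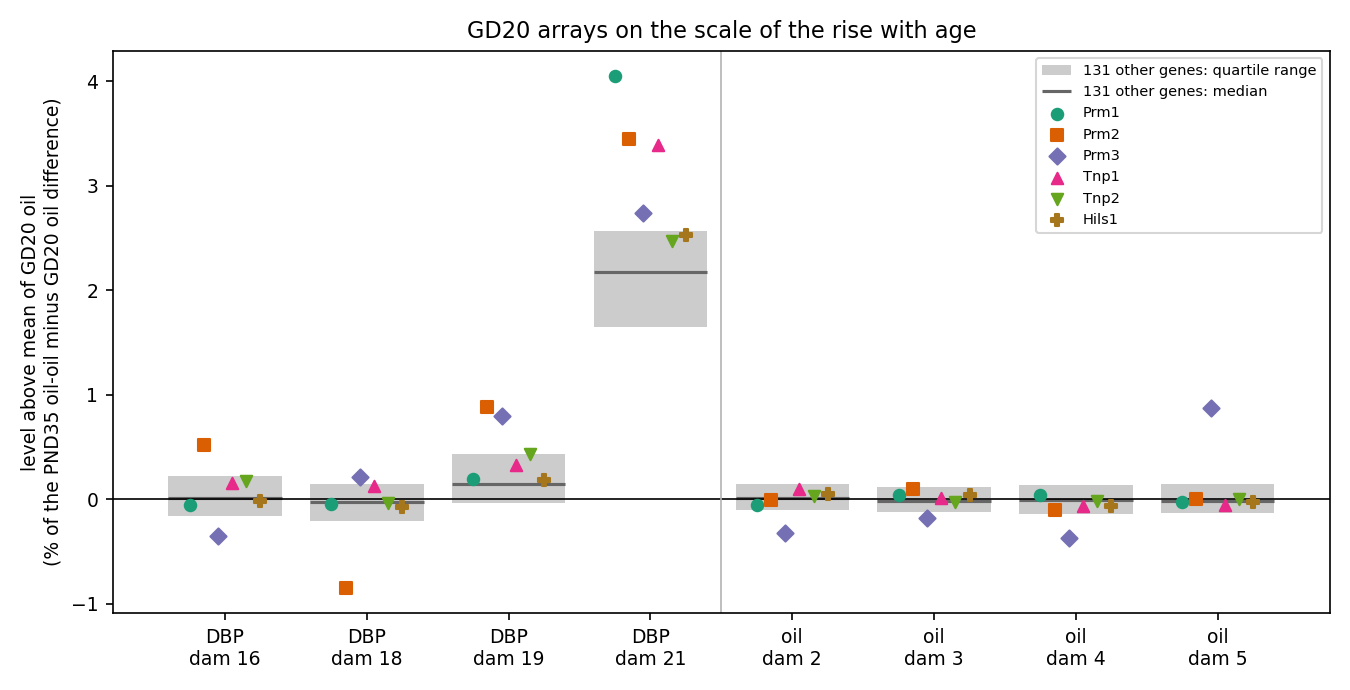
Level of the 6 genes on each GD20 array, as a percentage of the difference between the means of PND35 oil-oil and GD20 oil. Coloured points are genes, and grey boxes and lines give the quartile range and median of 131 other genes that are dim in GD20 oil and bright in oil-oil testes. On the array of dam 21 the 6 genes lie between 2.48% and 4.05%, and the 131 genes have a median of 2.18%.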

How the data were processed

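Testis RNA of 24 samples was biotin-labelled and hybridised to 1 Affymetrix Rat230_2 array each, per the labels' protocols. GCOS 1.0 is the software named in the submitters' processing notes. The deposited values are linear intensity per probe set, with no detection calls, which the authors scaled to a common level: the values of every array have a 2% trimmed mean between 500.135 and 500.194. The sources used here do not give the summarization algorithm. No depth applies to arrays, and their number limits the precision.

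From these values log2(intensity + 16) was computed for 31042 probe sets, after leaving out 57 controls, and tested with limma 3.58.1 in R 4.3.3 (lmFit and eBayes, the prior variance following intensity). Tests were two-sided, p-values were adjusted by Benjamini-Hochberg over all probe sets, and the threshold was 0.05. Arrays were used as deposited at GD20 and between the ages, and centred on their medians at PND35, where 16 arrays in 4 groups shared 1 fit. GD20 was fitted with all 8 arrays and without that of dam 21. The fit was tested on simulated data. Probe sets were named from the platform annotation (20826 have 1 gene symbol, 436 several and 9780 none), and the brightest on average stands for a list gene.

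The members and the gene lists were chosen with earlier results of these data known. All 6 genes are reported whatever their values. Per list and comparison up to 4 genes past the threshold are named, largest log2 fold change first, beside the 8 genes most alike in profile, the 2 nearest measured genes on each side of a locus, and genes of at least 200 and at least 4 times the other GD20 arrays on the array of dam 21. Genes given as the ends of a list's range and Crem, Tarbp2 and the values of list genes that did not pass were named after their values were seen. No probe set carried the symbol of 30 of the 90 list genes alone, and these are not analysed here. Alternatives were pseudocounts of 1 and 64, quantile normalization, a filter on dim probe sets (intensity of at least 100 on at least 4 arrays, or 3 in the fit without dam 21), eBayes without the trend, the other scaling, spike-in class and extraction method as covariates, and leaving out each array in turn. Spike-in classes were split at the largest gap between arrays of 1 age.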

Additional observations from a re-analysis of the deposited data

Results flagged for a closer look

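Of 36 sets of 4 arrays (6 genes in 6 groups), 4 held 1 array whose distance from the nearest other was a larger share of the whole range than Dixon's 95% critical value, and chance alone gives this in about 1 in 20 sets. In the GD20 DBP group the array of dam 21 stood apart at an intensity of 1469 in Prm1, 843 in Tnp1 and 471 in Hils1, with gaps of 0.939, 0.939 and 0.898 of the range. These 3 come from the same array and are not independent. In the GD20 oil group the array of dam 5 stood apart at 73.1 in Prm3, with a gap of 0.846 of the range.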

How the results depend on the processing

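No paired analysis was possible because the groups compared share no replicate numbers. Under every setting run, the rise of the 6 genes with age passed and all 6 values for oil-DBP over oil-oil were negative. The members' calls in that comparison by setting stand with it; Hils1 came past the threshold with the filter on dim probe sets and without pup 105, 120 or 134. In the other comparisons 0 of the 6 passed under any setting.

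At GD20 with all arrays, 137 probe sets passed, 10 without the intensity trend and 29 to 175 with 1 array left out. Without dam 21 107 passed, 221 with the filter on dim probe sets, 0 without the trend and 14 to 218 with 1 more array left out. Of those that passed, 47.4% and 45.8% were higher, and 67.8% and 64.3% with each array centred on its median. In oil-DBP over oil-oil 2770 passed, 1597 (without pup 111) to 4607 (without pup 105) with 1 array left out. In DBP-DBP over DBP-oil 1623 passed, and 935 with the spike-in class as covariate. In DBP-oil over oil-oil 1 passed, 0 without the trend, 0 with the spike-in class, 0 with the extraction method and 0 to 14 with 1 array left out. In DBP-DBP over oil-DBP 0 passed, 7 after quantile normalization, 7 with the filter, 1 without the trend, 3 with the arrays as deposited and 0 to 35 with 1 array left out.

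Values that turned sign were all of members that did not pass. With the spike-in class at GD20 and all arrays they were -0.41 (Prm1), -0.16 (Prm2), -0.016 (Prm3) and -0.27 (Hils1). Without dam 21 and 1 more array, Prm1 ranged from -0.41 to 0.39, Prm2 from -0.16 to 0.35, Prm3 from -0.016 to 0.81 and Hils1 from -0.27 to 0.40. In DBP-oil over oil-oil Tnp2 was 0.023 after quantile normalization and -0.15 to 0.050 with 1 array left out. In DBP-DBP over oil-DBP Prm1 was 0.063 after quantile normalization and 0.089 with the spike-in class, Prm3 0.037 with that class and Tnp1 -0.0087 with the arrays as deposited. With 1 array left out there, Prm1 ranged from -0.10 to 0.060, Prm2 from -0.0087 to 0.38, Prm3 from -0.25 to 0.056 and Tnp1 from -0.066 to 0.17. The cause of these changes was not tested. Under the filter on dim probe sets Prm1, Prm3, Tnp2 and Hils1 were too dim at GD20 to be tested.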
